A study of Mus musculus with 10 samples.

Results

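A set of 5 mouse cytosolic ribosomal protein genes and the paralog of each, 10 genes of the 25239 in the count table, were followed in postnatal testis. The members were chosen by name, as Rpl10 with Rpl10l, Rpl39 with Rpl39l, Rpl22 with Rpl22l1, Rpl7 with Rpl7l1 and Rps27 with Rps27l, with earlier results of the genotype comparison in these data known. All 10 had enough reads to be tested. Total RNA from testis of C57BL/6 mice was sequenced at postnatal day 7 (P7) and postnatal day 4 (P4). The conditional knockout (cKO) carries the genotype label Lsm7-flfl-stra8 and was set against wild type (WT) at each day, with 3 P7 cKO, 2 P7 WT, 3 P4 cKO and 2 P4 WT libraries. The label pairs floxed Lsm7, which encodes an LSm ring protein of U6 snRNP and of cytoplasmic mRNA decay, with Stra8, a gene induced as germ cells differentiate. It does not spell out the transgene, nor do the labels state separate animals, litters or pooling, so the spread behind each p-value is that of these libraries and may be technical.

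Ribosomal protein genes are expressed in every cell, and for a few of them a second gene encodes a closely related protein. Rpl10 and Rpl39 lie on the X chromosome, which is silenced in male germ cells during meiosis. Their autosomal paralogs Rpl10l and Rpl39l are expressed mainly in the male germ line, and mice that lack either form few or no working sperm. Rpl22 represses Rpl22l1 in mouse cells. Rpl7l1 is a diverged relative of Rpl7 whose yeast counterpart Rlp7 acts in ribosome assembly. Rps27l is known in human cells as a gene induced by p53.

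The coding sequences show how alike the members of a pair are, and therefore how far short reads can tell them apart. They are credited to GENCODE M21 on GRCm38, read 5′ to 3′ on the coding strand, with capitals at the bases that differ between the pair. Rpl39 (chromosome X, 37082518 to 37085222, minus strand, exon length 434 bases) and Rpl39l (chromosome 16, 10170228 to 10174911, plus strand, 805 bases) have coding sequences of 156 bases that differ at 23. They are shown whole because this pair's ratio changed most in cKO.
Rpl39: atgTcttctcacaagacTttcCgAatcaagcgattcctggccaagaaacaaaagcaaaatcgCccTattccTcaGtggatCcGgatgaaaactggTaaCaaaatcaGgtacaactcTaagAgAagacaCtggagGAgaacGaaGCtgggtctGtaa
Rpl39l: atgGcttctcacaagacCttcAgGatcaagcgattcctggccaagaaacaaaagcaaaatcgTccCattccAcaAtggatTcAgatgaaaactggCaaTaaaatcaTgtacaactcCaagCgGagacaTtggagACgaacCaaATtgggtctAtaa

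Rpl10 (chromosome X, 74270816 to 74273135, plus strand, 795 exon bases in 7 blocks) and Rpl10l (chromosome 12, 66283379 to 66284401, minus strand, 1023 bases in 1 block) both encode 214 amino acids. Rpl10l lacks introns. The coding sequences of 645 bases differ at 98 positions (84.8% identity), 25 of them among bases 1 to 150, shown here to give the spacing of the differences over a short stretch.
Rpl10: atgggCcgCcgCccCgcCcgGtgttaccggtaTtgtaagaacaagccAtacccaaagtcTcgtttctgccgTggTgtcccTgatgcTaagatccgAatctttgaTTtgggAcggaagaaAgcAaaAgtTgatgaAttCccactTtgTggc
Rpl10l: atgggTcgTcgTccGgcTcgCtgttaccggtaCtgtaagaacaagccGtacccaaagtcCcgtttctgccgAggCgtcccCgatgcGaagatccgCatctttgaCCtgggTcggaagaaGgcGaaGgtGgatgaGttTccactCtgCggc

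Rps27 (chromosome 3, 90212667 to 90213648, minus strand, 575 exon bases) and Rps27l (chromosome 9, 66946086 to 66949522, plus strand, 688 exon bases) have coding sequences of 255 bases that differ at 61 (76.1% identity). They are shown whole because the count of Rps27 needed a check of what it measures.
Rps27: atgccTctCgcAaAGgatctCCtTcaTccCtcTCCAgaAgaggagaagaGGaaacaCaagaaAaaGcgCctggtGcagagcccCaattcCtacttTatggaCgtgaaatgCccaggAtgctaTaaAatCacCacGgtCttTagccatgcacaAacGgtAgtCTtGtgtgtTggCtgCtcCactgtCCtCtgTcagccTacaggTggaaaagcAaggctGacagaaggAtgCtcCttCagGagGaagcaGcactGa
Rps27l: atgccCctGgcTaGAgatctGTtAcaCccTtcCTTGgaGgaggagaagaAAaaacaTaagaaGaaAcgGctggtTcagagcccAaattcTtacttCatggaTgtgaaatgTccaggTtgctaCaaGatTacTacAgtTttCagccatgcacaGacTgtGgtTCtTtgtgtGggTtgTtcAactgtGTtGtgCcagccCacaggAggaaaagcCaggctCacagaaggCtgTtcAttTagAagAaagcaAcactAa

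The other pairs are less alike. Rpl22 (chromosome 4, 152324436 to 152334082, plus strand, 2497 exon bases) and Rpl22l1 (chromosome 3, 28805508 to 28807424, plus strand, 556 exon bases) were 70.2% identical over the aligned coding bases, leaving out gaps. Rpl7 (chromosome 1, 16101296 to 16104433, minus strand, 933 exon bases) and Rpl7l1 (chromosome 17, 46773907 to 46782656, minus strand, 2606 exon bases) were 59.9% identical. The coding sequence of Rpl39l lies within 1 exon (chromosome 16, 10174310 to 10174465), whereas that of Rpl39 spans introns.

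Sharing with other genes was also measured. Of the 50-base words of Rpl10 transcripts, 73.7% also occurred in transcripts of other genes, 15 in number. The shares were 58.9% for Rpl22l1, 49.3% for Rpl7 and 46.2% for Rps27, against 16.5% for Rpl39, 16.2% for Rps27l, 7.6% for Rpl10l, 7.5% for Rpl7l1, 5.2% for Rpl22 and 0.0% for Rpl39l. How reads with several matches were counted is not given in the sources used here, so the levels of Rpl10, Rpl22l1, Rpl7 and Rps27 are the less certain ones. The paralogs Rpl10l and Rpl39l shared few words or none.

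Libraries held 28.8 to 41.8 M reads. Between the 2 P7 WT libraries, counts differed little more than sampling noise allows (chi-square over degrees of freedom 1.98, with 22.24 to 115.81 for the other pairs within a group). They were summed and counted as 1 sample, so n was 3 for P7 cKO, 1 for P7 WT, 3 for P4 cKO and 2 for P4 WT. P7 cKO library 1 stood apart from libraries 2 and 3 of its group (110.5 and 115.81, against 22.24 between those), and results that rest on it are given with and without it. The Lsm7 level was 45.2, 26.0 and 20.3 CPM (read counts scaled to 1 M per library) in P7 libraries labelled cKO, against 33.3 CPM in P7 WT, with overlap. P4 libraries labelled cKO had 44.9, 50.5 and 43.6 CPM of it, against 36.2 and 25.7 CPM in P4 WT, so its level was not lower in the libraries labelled cKO at P4. The labels give the cell type as germ cell, but markers of Sertoli cells (12 listed, 12 with a read in every library) summed to 3535 CPM or more in every library, and the data are those of whole testis. In such bulk samples fewer cells of a type and less RNA per cell cannot be told apart.

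The first question was how each gene differed between P7 and P4. In cKO, Rpl10l and Rpl39l rose at P7, while Rpl10, Rpl39 and Rpl7 fell. In WT, Rpl10l, Rpl39l and Rpl7l1 rose at P7, while Rpl10 and Rpl39 fell. The test was edgeR's quasi-likelihood test over 18419 genes with Benjamini-Hochberg adjustment and a threshold of 0.05. As background, 14.5% of all genes rose and 14.7% fell in cKO, against 11.8% and 9.97% in WT. With library totals in place of TMM factors, 3907 genes rose and 1818 fell in cKO, against 2663 and 2709 with the factors. Values are CPM on the TMM scale, differences are on the log2 scale, and the SE is that of the fit. Where groups are said not to overlap, the share of all genes that do the same was not counted. Such statements describe the samples only.

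**Figure D1:**
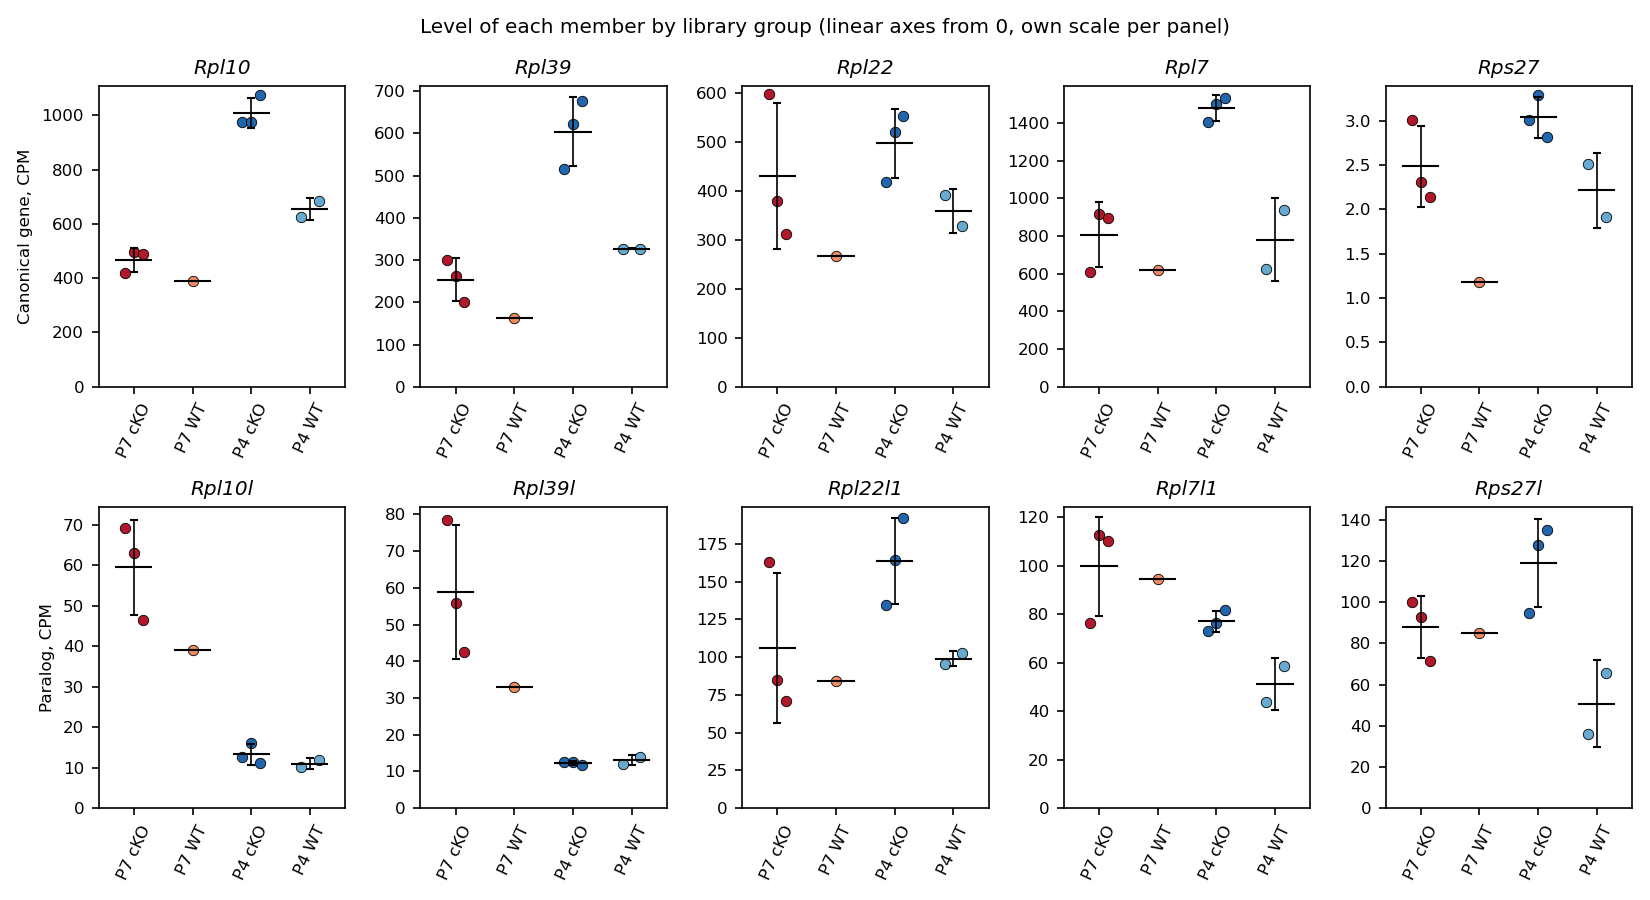
Level of each of the 10 genes (vertical axes, CPM, linear from 0, a scale per panel) in P7 cKO, P7 WT, P4 cKO and P4 WT. Points are samples, horizontal bars means and whiskers 1 SD, with P7 WT a single sample. Rpl10l and Rpl39l are higher in every P7 sample than in every P4 sample, and Rpl10 and Rpl39 are lower.

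Rpl10l, which encodes the germline form of large subunit protein uL16, had 69.1, 63.0 and 46.5 CPM in P7 cKO, against 12.6, 16.1 and 11.2 CPM in P4 cKO. In WT it had 39.2 CPM at P7, against 10.1 and 12.0 CPM at P4. Every P7 sample lay above every P4 sample of its genotype. The difference was 2.17 in cKO (SE 0.21, edgeR adjusted p = 4.65e-05), a 4.48-fold rise, and 1.83 in WT (SE 0.29, edgeR adjusted p = 0.00235), a 3.54-fold rise.

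Rpl39l, the germline form of the small large-subunit protein eL39, which lines the peptide exit tunnel, had 78.5, 56.0 and 42.4 CPM in P7 cKO, against 12.7, 12.5 and 11.8 CPM in P4 cKO. In WT it had 33.1 CPM at P7, against 12.1 and 14.0 CPM at P4. The P4 values of both genotypes lay close together, and the P7 cKO values spread more widely, with library 1 highest. The difference was 2.26 in cKO (SE 0.22, edgeR adjusted p = 5.34e-05) and 1.34 in WT (SE 0.31, edgeR adjusted p = 0.0117). Without P7 cKO library 1 the cKO differences were 2.04 for Rpl10l and 2.00 for Rpl39l, both past the threshold. Whether the rise differed between genotypes was not tested.

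Rpl10, the X-linked canonical gene for uL16, had 418, 497 and 488 CPM in P7 cKO, against 976, 977 and 1074 CPM in P4 cKO. WT testis had 391 CPM at P7, against 627 and 685 CPM at P4. Both genotypes were lower at P7 with no overlap. The difference was -1.11 in cKO (SE 0.15, edgeR adjusted p = 0.000366) and -0.75 in WT (SE 0.23, edgeR adjusted p = 0.0399).

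Rpl39, the X-linked canonical gene for eL39, had 300.0, 262 and 200.4 CPM in P7 cKO, against 515, 622 and 676 CPM in P4 cKO. The WT level was 164 CPM at P7, against 326 and 327 CPM at P4. It too was lower at P7 without overlap in either genotype. The difference was -1.25 in cKO (SE 0.18, edgeR adjusted p = 0.000572) and -1.0 in WT (SE 0.28, edgeR adjusted p = 0.0285).

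Rpl7, which encodes the large subunit protein uL30, had 609, 916 and 895 CPM in P7 cKO, against 1403, 1501 and 1533 CPM in P4 cKO. WT testis had 619 CPM at P7, against 627 and 936 CPM at P4. It was lower at P7 in cKO without overlap, with a difference of -0.87 (SE 0.21, edgeR adjusted p = 0.00863). The WT difference of -0.34 (SE 0.31) did not pass (edgeR adjusted p = 0.456), with P7 WT just under the lower P4 WT sample.

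Rpl7l1 had 76.3, 112.6 and 110.4 CPM in P7 cKO, against 73.1, 76.4 and 81.8 CPM in P4 cKO. In WT it had 94.4 CPM at P7, against 43.7 and 58.8 CPM at P4. P7 cKO library 1 lay among the P4 cKO samples and the other P7 cKO samples above them. The WT difference was 0.88 (SE 0.27, edgeR adjusted p = 0.0359). The cKO difference was 0.37 (SE 0.18, edgeR adjusted p = 0.147), and 0.53 without P7 cKO library 1 (edgeR adjusted p = 0.0203). It was 0.28 without P7 cKO library 2 and 0.29 without library 3, and passed in neither case.

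Rpl22, which encodes a large subunit protein that also binds selected mRNAs, had 599, 380.2 and 313 CPM in P7 cKO, against 419, 520.2 and 554 CPM in P4 cKO. Its WT level was 268 CPM at P7, against 392 and 328 CPM at P4. Its paralog Rpl22l1 had 162.8, 85.0 and 70.8 CPM in P7 cKO, against 134.5, 164.6 and 191.8 CPM in P4 cKO. Its WT level was 84.3 CPM at P7, against 95.6 and 102.6 CPM at P4. Both genes were highest of the P7 cKO samples in library 1, which lay within or above the P4 cKO values. Neither passed: Rpl22 differed by -0.21 in cKO and -0.43 in WT (edgeR adjusted p = 0.525 and 0.398), and Rpl22l1 by -0.62 and -0.23 (edgeR adjusted p = 0.111 and 0.711). Without P7 cKO library 1, both passed in cKO, at -0.52 for Rpl22 (edgeR adjusted p = 0.0408) and -1.07 for Rpl22l1 (edgeR adjusted p = 0.000466). Neither passed in cKO without P7 cKO library 2 or without library 3. Without library 3 the differences were -0.02 for Rpl22 and -0.4 for Rpl22l1.

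Rps27l had 99.8, 92.6 and 71.3 CPM in P7 cKO, against 94.6, 127.5 and 134.7 CPM in P4 cKO. In WT it had 84.8 CPM at P7, against 35.8 and 65.6 CPM at P4. The cKO groups overlapped, while P7 WT lay above both P4 WT samples. The differences were -0.44 in cKO and 0.74 in WT, and neither passed (edgeR adjusted p = 0.177 and 0.134). The WT difference was 0.36 without P4 WT library 1 (edgeR adjusted p = 0.515) and 1.24 without P4 WT library 2 (edgeR adjusted p = 0.0257).

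The WT calls rested on few samples, as did the count of all genes past the threshold in WT, whose range is given at the end. Of the 5 members past the threshold in WT, 1 (Rpl10l) passed without P4 WT library 1, 3 (Rpl10l, Rpl39 and Rpl39l) passed without P4 cKO library 2, and Rpl10 passed in 11 of 19 alternatives. In cKO, Rpl10, Rpl10l, Rpl39, Rpl39l and Rpl7 passed in all 19 alternatives, and the count of members was 8 without P7 cKO library 1. Some of the 19 left out a WT library, which enters that comparison only through the shared spread, the scaling and the filter.

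The other 74 cytosolic ribosomal protein genes give the setting for the canonical members. Of the 73 tested, 37 fell in cKO and 15 fell in WT, no other passed, and the median differences were -0.529 and -0.607, against 0.00252 and -0.0258 over all genes. The cKO count was 20 without P4 cKO library 2 or P7 cKO library 3, 14 without P4 cKO library 3 and 20 with library totals, and the WT count 2 without P4 WT library 1, 31 without P7 cKO library 1, 7 with offsets for length and GC content, 25 with DESeq2 and 43 with the P7 WT libraries kept separate. Rpl10 and Rpl39 thus had the sign of these medians, and Rpl10l and Rpl39l the opposite sign. The remaining ribosomal paralogs listed were Rpl3l, the muscle form of Rpl3, Rpl36al, and Rps4l, and of these Rpl3l and Rps4l rose in cKO. Rps4l averaged 190.8 CPM in P7 cKO and 107.7 CPM in P4 cKO, a difference of 0.83 (SE 0.21, edgeR adjusted p = 0.0125). Rpl3l averaged 2.00 CPM in P7 cKO and 0.821 CPM in P4 cKO, a difference of 1.29 (SE 0.34, edgeR adjusted p = 0.0159). In WT neither passed, with 0.43 for Rps4l (SE 0.31, edgeR adjusted p = 0.335) and -0.15 for Rpl3l (SE 0.50, edgeR adjusted p = 0.851), and whether the genotypes differ was not tested. Rpl36al passed in neither genotype, with -0.14 in cKO (SE 0.21, edgeR adjusted p = 0.632) and -0.59 in WT (SE 0.32, edgeR adjusted p = 0.193).

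**Figure D2:**
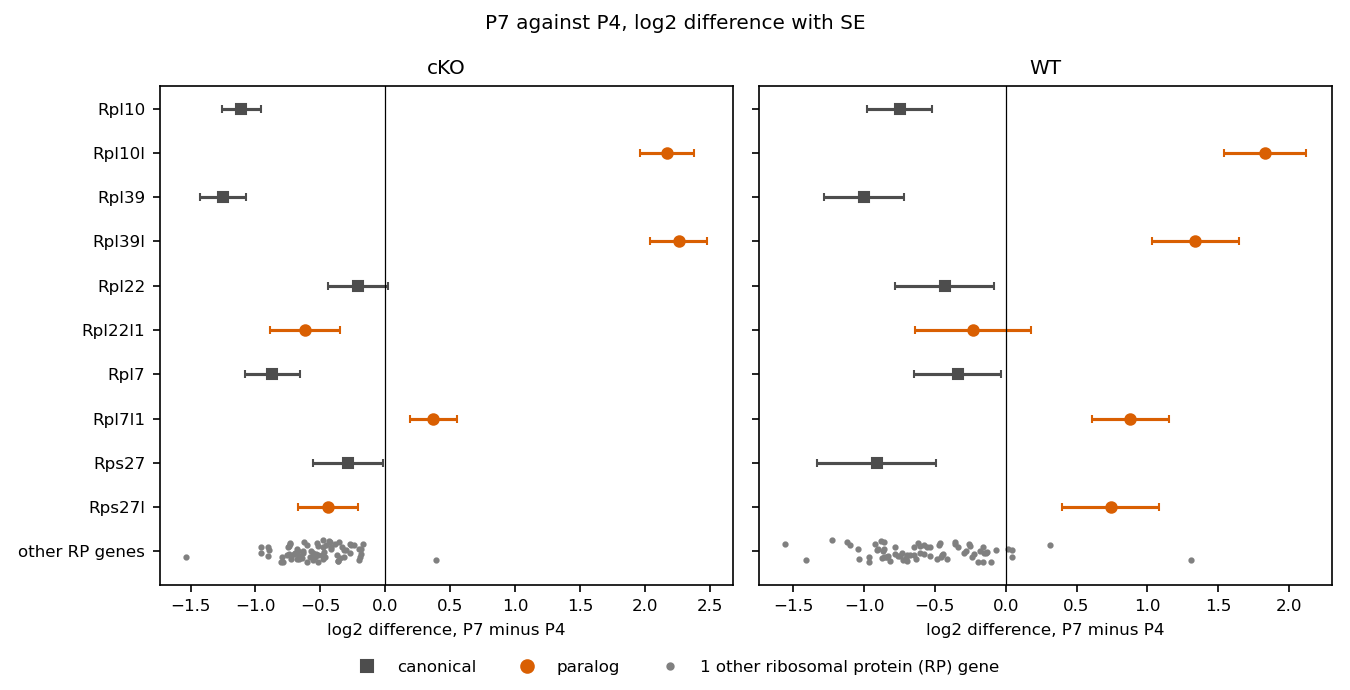
Log2 difference, P7 minus P4 (horizontal axes), of the 10 members in cKO (left) and WT (right). Squares are canonical genes, circles paralogs and whiskers 1 SE, and grey points are the 73 other ribosomal protein (RP) genes tested. Rpl10l and Rpl39l lie to the right of the grey points in both panels.

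Germ cell markers were higher at P7 than at P4 in both genotypes, as Rpl10l and Rpl39l were. Between genotypes at P7 they went apart: the markers were lower in cKO than in WT, while Rpl10l and Rpl39l were higher. The 20 listed (19 with a read in every library) summed to 2403 to 3071 CPM in P7 cKO and 3169 CPM in P7 WT, against 662 to 749 CPM in P4 cKO and 776 to 875 CPM in P4 WT. The 20 meiotic prophase markers, all with a read in every library, summed to 539.9 to 683 CPM in P7 cKO and 989 CPM in P7 WT, against 167 to 190.4 CPM in P4 cKO and 302 to 328 CPM in P4 WT. The 12 spermatid markers (6 with a read in every library) summed to 17.0 to 36.7 CPM in P7 cKO and 7.79 CPM in P7 WT, against 16.9 to 19.0 CPM in P4 cKO and 18.7 to 21.4 CPM in P4 WT. Leydig cell markers (10 of 10 with a read in every library) summed to 1129 to 1257 CPM in P7 cKO and 1044 CPM in P7 WT, against 1914 to 2067 CPM in P4 cKO and 1715 to 1980.0 CPM in P4 WT. Peritubular and stromal markers (10 of 10) summed to 3727 to 5464 CPM in P7 cKO and 5910.0 CPM in P7 WT, against 8635 to 11660 CPM in P4 cKO and 8118 to 9451 CPM in P4 WT. Endothelial markers (7 of 7) summed to 126 to 179 CPM in P7 cKO and 155 CPM in P7 WT, against 354 to 374 CPM in P4 cKO and 289.8 to 299.6 CPM in P4 WT. Sertoli cell markers summed to 5462 to 6424 CPM in P7 cKO and 6404 CPM in P7 WT, against 6784 to 7623 CPM in P4 cKO and 3535 to 5317 CPM in P4 WT. Their part in the changes of the members was not tested.

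The second question was how much of each pair came from the paralog. The ratio of reads per kilobase of exon, paralog over canonical gene, was taken within each library, so it does not depend on how libraries are scaled. Rpl10l stood at 12.9%, 9.85% and 7.42% of Rpl10 in P7 cKO, against 1.00%, 1.28% and 0.810% in P4 cKO. In WT it stood at 7.79% at P7 (95% Clopper-Pearson interval from counting 7.46% to 8.13%), against 1.25% and 1.36% at P4. Every P7 value was several times every P4 value. The log2 ratio was 3.27 higher at P7 in cKO (pooled SD 0.36, 9.67-fold) and 2.58 higher in WT (SD of the P4 pair 0.08, 5.97-fold).

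Rpl39l stood at 14.1%, 11.5% and 11.4% of Rpl39 in P7 cKO, against 1.33%, 1.08% and 0.941% in P4 cKO. In WT it stood at 10.9% at P7 (interval 10.4% to 11.5%), against 2.00% and 2.31% at P4. The P7 samples of both genotypes lay close together, and at P4 the cKO samples lay below the WT samples. The log2 ratio was 3.48 higher at P7 in cKO (pooled SD 0.21, 11.1-fold) and 2.35 higher in WT (SD 0.15, 5.09-fold). Even at P7, most reads per kilobase of both X-linked pairs came from the canonical gene.

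Rpl7l1 stood at 4.48%, 4.40% and 4.42% of Rpl7 in P7 cKO, against 1.86%, 1.82% and 1.91% in P4 cKO. In WT it stood at 5.46% at P7 (interval 5.31% to 5.62%), against 2.50% and 2.25% at P4. Within the cKO groups this ratio varied less between samples than the other ratios did (SD of the log2 ratio 0.01 at P7 and 0.03 at P4), and P7 cKO library 1, which stood apart in the level of both genes, did not stand apart in their ratio. The log2 ratio was 1.25 higher at P7 in cKO (pooled SD 0.03, 2.38-fold) and 1.20 higher in WT (SD 0.11, 2.31-fold).

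Rpl22l1 stood at 122%, 100% and 102% of Rpl22 in P7 cKO, against 144%, 142% and 155% in P4 cKO. In WT it stood at 141% at P7, against 109% and 141% at P4. The ratio was lower at P7 in cKO without overlap, by 0.45 on the log2 scale (difference -0.45, pooled SD 0.12), and in WT P7 lay level with the higher P4 sample (difference 0.19, SD 0.26). The exon length of Rpl22 counts all its annotated transcripts, so the height of this ratio depends on which of them are made. Its change would depend on that too if their use differed between groups, which was not tested. Ratios carry no test, and their intervals cover counting error only.

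**Figure D3:**
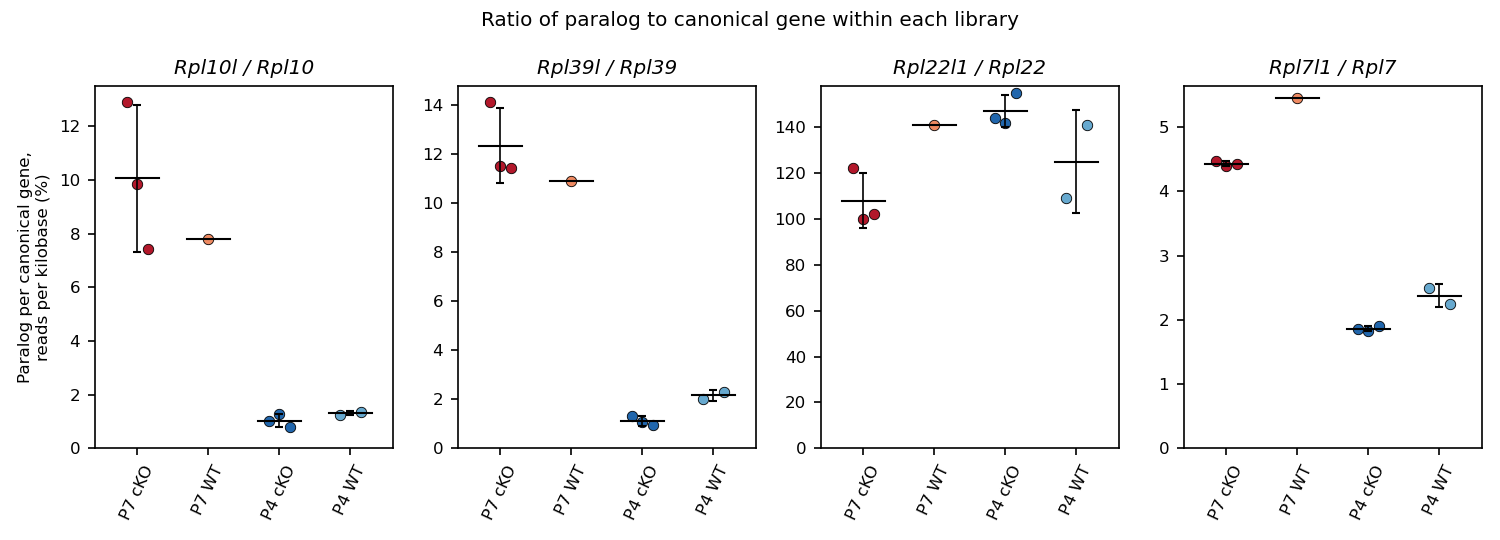
Paralog as a percentage of its canonical gene, in reads per kilobase of exon (vertical axes, linear from 0), for 4 pairs in P7 cKO, P7 WT, P4 cKO and P4 WT. Points are samples, bars means and whiskers 1 SD, with P7 WT a single sample. Rpl10l, Rpl39l and Rpl7l1 make up a larger share at P7 in both genotypes, and Rpl22l1 does not.

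Levels per kilobase put the 9 genes other than Rps27 in order. The places of Rpl10, Rpl22l1 and Rpl7 are the less certain ones, since they share many words with other genes. All places depend on the annotated exon lengths. On the RPKM scale (CPM per kilobase of exon), P7 cKO ran from Rpl7 (864 ± 184, SD, n = 3) through Rpl10 (588 ± 54.5) and Rpl39 (585 ± 116), which did not differ beyond their spread, to Rpl22l1 (191 ± 89.0), Rpl22 (172 ± 59.9) and Rps27l (128 ± 21.6), whose spreads also overlapped. Then came Rpl39l (73.3 ± 22.7) and Rpl10l (58.2 ± 11.4), with overlapping spreads, and Rpl7l1 (38.3 ± 7.81). In P4 cKO the order ended otherwise, with Rpl7l1 (29.6 ± 1.69 RPKM, SD, n = 3) above Rpl39l (15.3 ± 0.577) and Rpl10l (13.0 ± 2.44). In P7 WT the last places went to Rpl39l (41.2 RPKM), Rpl10l (38.3) and Rpl7l1 (36.2), in 1 sample. In P4 WT Rpl7l1 (19.7 ± 4.10 RPKM, SD, n = 2) and Rpl39l (16.2 ± 1.69) overlapped and Rpl10l (10.8 ± 1.27) was lowest.

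Rps27 had only 3.01, 2.31 and 2.14 CPM in P7 cKO and 1.18 CPM in P7 WT, against 3.01, 3.29 and 2.82 CPM in P4 cKO and 2.52 and 1.92 CPM in P4 WT. Rps27 encodes the small subunit protein eS27, made in every cell, and its own paralog was read far more. The count table lists a second gene, Rps27rt, on the same strand over 345 of the 575 exon bases of Rps27 (60.0%), which leaves 230 bases, and Rps27rt had 0 reads in all 10 libraries, against 795 reads for Rps27. RefSeq on GRCm38.p6 places Rps27rt on chromosome 9 (114982366 to 114982739) instead. The other ribosomal protein genes with a same-strand gene over most of their exon bases were few in reads too. They were Rpl26 (95.8% covered, 8 reads in all libraries), Rpl30 (76.0%, 60 reads) and Rpl34 (59.9%, 618 reads), with 0 reads for each covering gene. Rpl30 and Rpl34 stayed among the 73 other ribosomal protein genes tested. Of these, Rpl30 had the highest P7 minus P4 difference, 0.389 in cKO and 1.31 in WT. The Rps27 count was therefore not read as the level of its mRNA, no ratio was formed, and its differences of -0.29 in cKO and -0.91 in WT between P7 and P4 (edgeR adjusted p = 0.444 and 0.14) describe that remainder.

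**Figure D4:**
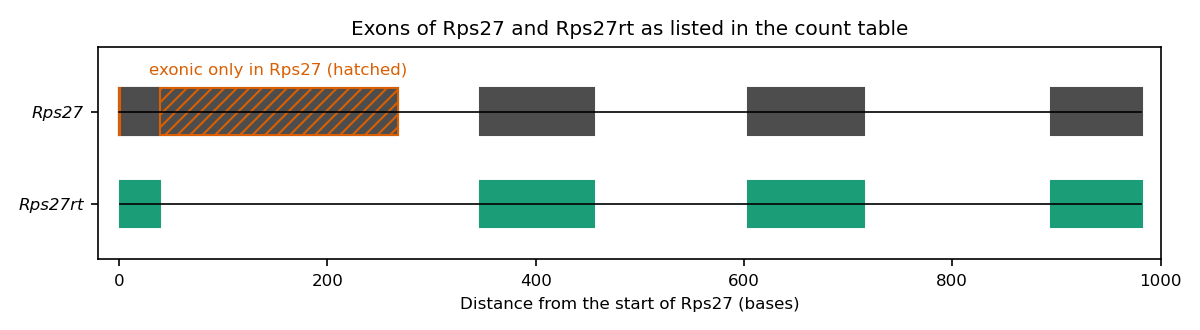
Exons (boxes) of Rps27 and Rps27rt as the count table lists them, by distance in bases from the start of the Rps27 interval, its 3′ end since it is on the minus strand. Hatching marks the 230 bases exonic in Rps27 and in no exon of Rps27rt.

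The third comparison set cKO against WT at each day. Earlier results of this comparison were known when the members were chosen, so their differences are given with no p, and counts past the threshold stand beside the share of all genes as a description from which nothing is read. At P7 every member's mean was higher in cKO than in WT, and at P4 every member's mean but that of Rpl39l was. Both statements include Rps27, whose count was not read as the level of its mRNA. Of all 18419 genes tested, 9889 had a difference above 0 at P7 and 9226 at P4. At P7 none of the 10 passed the edgeR threshold, where 17.0% of all genes did. There, 3 had an unadjusted p under 0.05 in edgeR, as did 33.3% of all genes, and 1 (Rpl39l) passed with DESeq2, as did 26.8% of the genes it tested. At P4, 4 passed (Rpl10, Rpl39, Rpl7 and Rps27l, all higher in cKO), where 8.96% of all genes passed. That count was 6 without P7 cKO library 1, 2 without P4 cKO library 1 or P4 WT library 2, and 0 without P4 cKO library 2, P4 cKO library 3 or P4 WT library 1. Small P7 differences turned sign without P7 cKO library 1 (Rpl22l1 -0.11, Rps27l -0.05) or library 2 (Rpl7l1 -0.02), and that of Rpl39l at P4 was 0.03 without P4 WT library 2.

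At P7 the germline paralogs averaged 59.6 CPM (Rpl10l) and 59.0 CPM (Rpl39l) in cKO, against 39.2 and 33.1 CPM in the WT sample. The differences were 0.60 (SE 0.29) and 0.83 (SE 0.31). All 3 cKO samples lay above the single WT sample for both, and how many of all genes do the same was not counted. With offsets for length and GC content they were 0.16 for Rpl10l and 0.93 for Rpl39l, and that of Rpl39 at P7 was 0.18 in place of 0.64. Germ cell markers summed to 2403 to 3071 CPM in P7 cKO and 3169 CPM in the single P7 WT sample, and their part in these differences was not tested. At P4 the same genes averaged 13.3 CPM (Rpl10l) and 12.3 CPM (Rpl39l) in cKO, against 11.1 and 13.0 CPM in WT, with overlap for both (differences 0.26, SE 0.23, and -0.08, SE 0.24).

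The differences of Rpl39, Rpl7 and Rpl10 were larger at P4 than at P7 (0.64, 0.38 and 0.26 at P7), which was not tested. Those of the canonical members Rpl22 (0.47 at P4, 0.68 at P7) and Rps27 (0.46 and 1.07) were smaller at P4. Rpl39 averaged 604 CPM in P4 cKO and 327 CPM in P4 WT (difference 0.89, SE 0.21), Rpl7 1479 and 781 CPM (0.92, SE 0.23) and Rpl10 1009 and 656 CPM (0.62, SE 0.17). The 3 P4 cKO samples lay above both P4 WT samples for each of them, and how many of all genes do the same was not counted. Rps27l had the largest difference of the members at P4, averaging 119 CPM in cKO and 50.7 CPM in WT (1.23, SE 0.27), whereas at P7 it averaged 87.9 CPM in cKO and 84.8 CPM in WT (0.05, SE 0.33). Rpl22l1 averaged 164 CPM in P4 cKO and 99.1 CPM in P4 WT (0.72, SE 0.31), and Rpl7l1 77.1 and 51.2 CPM (0.59, SE 0.21). Beside them, 44 of the 73 other ribosomal protein genes were past the threshold and higher in cKO at P4 (median difference 0.845) and 38 at P7 (median 0.894). With edgeR the P4 count was 29 without P4 cKO library 1, 26 without P4 WT library 2 and 0 without P4 cKO library 2, P4 cKO library 3 or P4 WT library 1, though 55 to 57 then had an unadjusted p under 0.05, and DESeq2 called 54. The P7 count was 21 without P4 cKO library 2 and 13 without P7 cKO library 2. It was 0 in a fit of the compared groups alone (45 at an unadjusted p under 0.05) and 0 with offsets for length and GC content (22, with a median of 0.36), while DESeq2 called 50 and edgeR with the P7 WT libraries kept separate 59. The medians over the 10 members, Rps27 included, were 0.605 at P4 and 0.493 at P7. Markers of Sertoli cells, endothelial cells and macrophages were also higher in cKO at P4 without overlap. Those of Sertoli cells summed to 6784 to 7623 CPM in P4 cKO, against 3535 to 5317 CPM in P4 WT; at P7 the genotypes overlapped. Endothelial markers were higher as given above, and macrophage markers (8 of 8 with a read in every library) summed to 88.6 to 146 CPM against 84.5 to 84.7 CPM, a narrow gap. Other lists, with values given above, went otherwise at P4. Leydig cell markers and peritubular and stromal markers overlapped between genotypes, and germ cell and meiotic prophase markers were lower in cKO without overlap. Their part in the differences of the members was not tested.

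**Figure D5:**
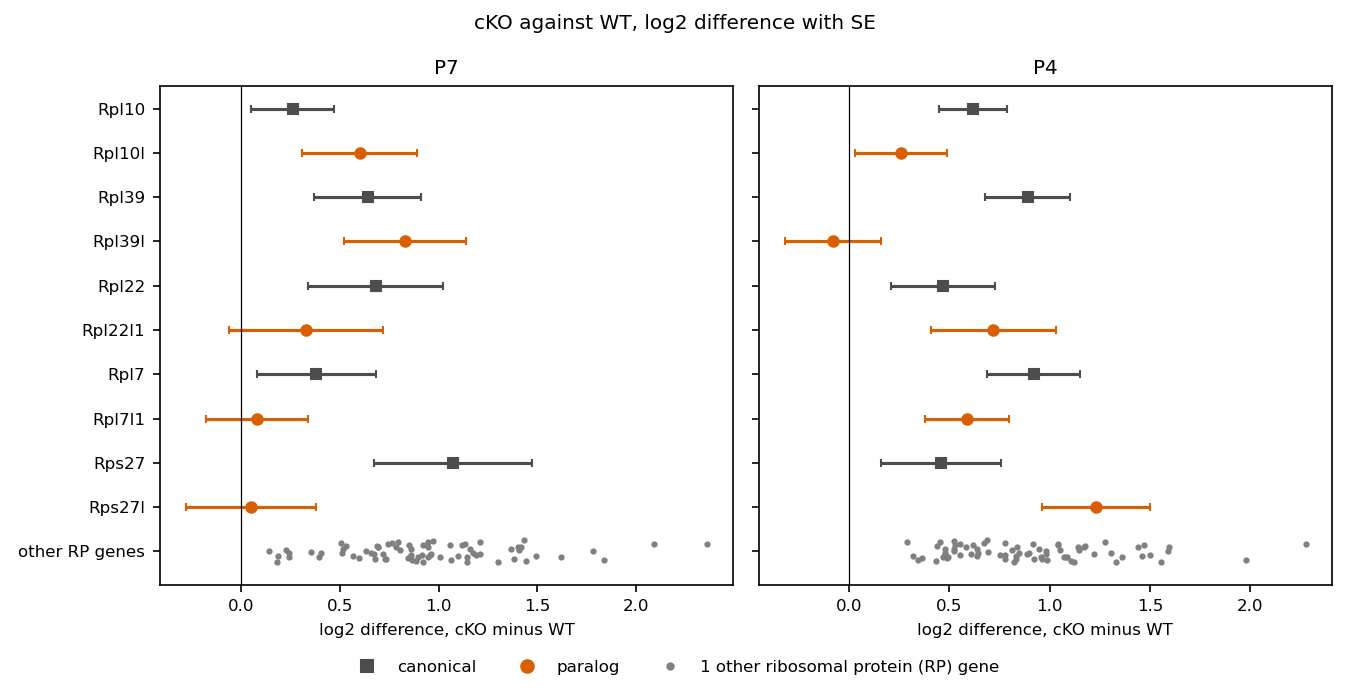
Log2 difference, cKO minus WT (horizontal axes), of the 10 members at P7 (left) and P4 (right). Squares are canonical genes, circles paralogs, whiskers 1 SE and grey points the 73 other ribosomal protein (RP) genes tested. Every grey point lies above 0 on both days, and the members lie mostly between 0 and 1. The grey points include Rpl34 (2.36 at P7, 2.28 at P4) and Rpl30 (1.06 and 1.98), whose exons are mostly covered by another gene, as those of Rps27 are.

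Within pairs, the genotypes differed less than the days for Rpl10l, Rpl39l and Rpl7l1. The log2 ratio of Rpl10l to Rpl10 differed between cKO and WT by 0.33 at P7 and -0.37 at P4, with overlap on both days. That of Rpl39l to Rpl39 differed by 0.17 at P7 and by -0.96 at P4 (pooled SD 0.22), where the ratio in cKO averaged 1.11% against 2.15% in WT. The ratio of Rpl7l1 to Rpl7 was lower in cKO on both days, with differences of -0.30 at P7 and -0.35 at P4. The ratio of Rpl22l1 to Rpl22 differed by -0.39 at P7 and 0.25 at P4, in opposite directions. For Rpl39l, Rpl7l1 and Rpl22l1 the genotypes did not overlap on either day, with a single WT sample at P7. Without P7 cKO library 1 the P7 differences were 0.13 for Rpl10l and 0.07 for Rpl39l, and without P7 cKO library 3 that of Rpl10l was 0.53. The P4 difference of Rpl10l was -0.21 without P4 cKO library 3. That of Rpl22l1 was 0.07 without P4 WT library 1 and 0.43 without P4 WT library 2.

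Genes whose levels ran most like each paralog were ranked by Pearson's r of log2 CPM over the 9 samples, among 13000 genes. The samples share their day and genotype, so r reflects those group differences. For Rpl10l the closest were Nip7, a ribosome biogenesis factor (r = 0.990), Padi2 (0.989) and Epcam, an adhesion protein of undifferentiated cells and epithelia (0.988). For Rpl39l they were Bahd1 (0.992), Gfod2 (0.990) and Tnnt2 (0.989), and r between Rpl10l and Rpl39l was 0.982. For Rpl7l1 they were Hyou1, an endoplasmic reticulum chaperone (0.987), Magea8 (0.986) and Aen, a nuclease (0.983). For Rpl22l1 they were Mrpl33, of the mitochondrial ribosome (0.968), Ss18l2 (0.949) and Cox7b, of the respiratory chain (0.945). For Rps27l they were Ramac (0.963), Ndufc2, of the respiratory chain (0.959), and Polr2k, an RNA polymerase subunit (0.957). Against its own canonical gene, r was -0.803 for Rpl10l, -0.674 for Rpl39l, 0.892 for Rpl22l1 and 0.139 for Rpl7l1.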

How the data were processed

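The authors deposited 1 table of raw read counts per gene with exon coordinates, per the file headers. Per the submitters' processing notes the build is GRCm38 (mm10), and STAR 2.7.11a, Subread 2.0.6 with featureCounts, and Trim Galore 0.6.10 are among the tools named. The settings for strand and for reads with several matches were not given in the sources used. Low counts were mostly even (67.8% to 80.0% of counts under 50), a pattern that counting both mates of each pair gives, so counting intervals are too narrow.

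Groups came from the labels. After filterByExpr (minimum count 10) and TMM scaling, the counts went into edgeR 4.0.16 under R 4.3.3 (quasi-likelihood, robust, two-sided, Benjamini-Hochberg over 18419 genes), in 1 fit of 9 samples with 5 residual degrees of freedom and a common biological coefficient of variation of 0.228. With a single P7 WT sample, its spread was taken to equal that of the other groups. Scripts were tested on simulated data. Genotype differences are given without p. Alternatives were RLE factors, library totals, other filters, DESeq2 1.42.0, 10 separate libraries, a replicate block, length and GC offsets (GC known for 96.5% of genes), the compared groups alone and each library left out. Named genes were all members, Lsm7 and the 3 genes most like each paralog (average log2 CPM of 1 or more). Rps4l, Rpl3l, Rpl36al and the genes in the overlap check were named after their values were seen. The members and lists were chosen with earlier results of these data known.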

Additional observations from a re-analysis of the deposited data

How the results depend on the processing

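For P7 against P4, alternatives that left out a library of the other genotype acted only through the shared spread, the scaling and the filter. No member changed direction under the 19 alternatives for P7 against P4. Among the members' calls there, Rpl10 in WT passed in 11 of 19 alternatives (adjusted p 0.00265 to 0.0924), Rpl39 and Rpl7l1 in 17 and Rpl39l in 18. With 10 separate libraries, and with the replicate block, the count of all genes past the threshold was 7279 and 7812 for P7 against P4 in WT, 2895 and 2732 for cKO against WT at P4, and 6905 and 7438 at P7, where 5 and 5 members passed. Of 13 pairs of same-numbered libraries, 4 had a correlation of deviations over 0.1 (range -0.16 to 0.31; P7 cKO with P4 cKO 0.02, -0.16 and 0.14), so the numbers were not taken as pairs. DESeq2 gave 2982 genes at P4 and 1 member at P7. The compared groups alone gave 3229 genes at P4 and 0 at P7 (4834 at an unadjusted p under 0.05, against 4273 adjusted with DESeq2). Length and GC offsets gave 2 genes at P7. With library totals the median of all genes was -0.156 at P4, 0.192 at P7, 0.183 in cKO and -0.113 in WT. With TMM factors it was 0.00109, 0.0846, 0.00252 and -0.0258. Library totals gave 2 members at P4. They gave 528 genes higher and 1544 lower at P4 (TMM 891 and 760), and 1744 and 1402 at P7 (TMM 1338 and 1791). The causes were not tested.

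Leaving out 1 library at a time, the members past the threshold ran from 5 to 8 for P7 against P4 in cKO, 1 to 5 in WT, 0 to 6 for cKO against WT at P4 and 0 to 1 at P7. All genes ran from 3520 to 5569, 1187 to 6315, 2 to 4157 and 961 to 4921 in the same comparisons. The log2 ratio difference between genotypes at P4 ran from 0.07 to 0.43 for Rpl22l1 and -0.42 to -0.27 for Rpl7l1, and at P7 from -0.33 to -0.27 for Rpl7l1. A P7 WT group of 1 sample limits every comparison that uses it.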
